A study of Mus musculus with 20 samples.

Results

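Rab22a and 5 other small GTPase genes of the Rab5 subfamily, Rab31, Rab5a, Rab5b, Rab5c and Rab21, were followed through abdominal aortas of C57BL/6 mice. The 6 genes were taken by name, and their values are sums of the FPKM of their Ensembl transcript models, with single models given beside the sums. FPKM is a read count scaled by the length of the transcript and by the total of the library. All 6 were among the 42890 genes summed and among the 15010 that passed the filter of at least 1 FPKM in at least 5 libraries. The libraries came from 4 groups of 5 mice: Rab22a knockout (KO) mice given angiotensin II (AngII) at 500 ng/kg/min for 14 days, KO mice given saline for 14 days, wild type (WT) mice given AngII at the same dose and time, and WT mice given saline. The sources used here do not say how the allele was made or give the age and sex of the mice. The title of the series ties loss of Rab22a to the recycling of the AngII receptor and to the blood pressure response.

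Rab GTPases are membrane switches: bound to GTP they recruit effector proteins to a compartment, and bound to GDP they are held in the cytosol by dissociation inhibitors. The Rab5 subfamily works at early endosomes. Rab5a, Rab5b and Rab5c drive fusion of incoming vesicles, Rab21 traffics integrins, Rab22a sorts cargo from early endosomes into recycling tubules, and Rab31, also called Rab22b, moves cargo between the trans-Golgi network and endosomes. In the artery wall, surface receptors for hormones such as AngII pass through these endosomes after they are internalised.

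The genes fell into groups by the layout of their coding exons. All are relatives within the Rab5 subfamily, so shared layouts are not independent of the choice of members. Rab22a-201 and the coding model of Rab31 each have 7 coding exons, and the last 6 of them have the same lengths in both genes, namely 80, 82, 72, 107, 110 and 95 bases (GENCODE M21, mm10). Rab5a-201, Rab5b-201 and Rab5c-202 have 5 coding exons and share lengths of 152, 123, 94 and 113 bases from the second on. The main model of Rab21 has 7 coding exons with lengths of its own. Over the exons of equal length, Rab22a and Rab31 were identical at 365 of 546 bases (66.8%), ranging over exons between 46.3% in the last and 75.6% in exon 3. Rab5b and Rab5c were identical at 76.1% of 482 bases, Rab5a and Rab5c at 71.4% of the same 482 positions, and Rab5a and Rab5b at 74.0% of 645.

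**Figure D1:**
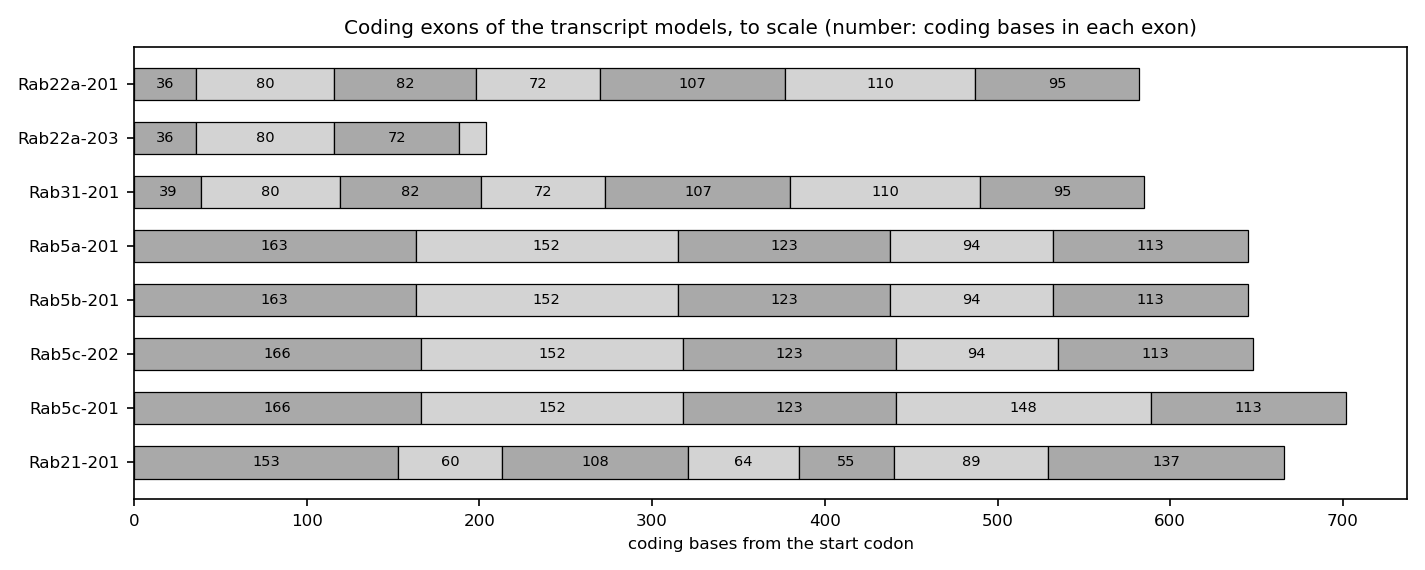
Coding exons of the transcript models, drawn to scale in coding bases from the start codon, with 1 bar segment per exon and its number of coding bases inside (the last, unlabelled segment of Rab22a-203 has 16). Rab22a-203 goes from its 80 base exon straight to its 72 base exon and stops after 204 coding bases, while Rab22a-201 and Rab31 share their segment lengths from the 80 base exon on.

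Exon 3 of Rab22a carries the contrast between genotypes, so the junction made where it is left out is shown. Rab22a lies on the plus strand of chromosome 2 (mm10). In the junction line the capitals mark the 20 bases that follow exon 2. In the last line, which runs through the first bases after exon 2 to the end of the reading frame, the capitals mark the stop codon.
Rab22a-203, exon 2 into exon 4: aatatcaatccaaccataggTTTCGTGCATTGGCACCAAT
Rab22a-203, exon 2 to the stop: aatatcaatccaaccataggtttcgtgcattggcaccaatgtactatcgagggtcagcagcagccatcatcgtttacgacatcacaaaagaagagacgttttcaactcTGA
Exon 3 has 82 bases, which is not a multiple of 3, and the frame of Rab22a-203 closes after 68 codons against 194 codons in Rab22a-201. Its stop lies 198 bases before the last exon junction, and GENCODE files the model under nonsense mediated decay. The other model, Rab22a-202, contains exon 3 but joins it to a different acceptor, and has 187 codons.

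The libraries implied about 68700000 to 77400000 reads each, and no 2 of them were identical. Their pairwise correlations over all deposited transcript models, on log2(FPKM + 1), ran between 0.806 and 0.902. Smooth muscle markers were high, with Acta2 between 522 and 3128 FPKM, although Myocd stayed between 0.10 and 1.41 FPKM. Lists for adipocytes, skeletal muscle, nerve, fibroblasts and blood cells were also present, so the samples held more than the muscle wall. The mean log2(FPKM + 1) of the smooth muscle list ran from 5.91 to 7.66, and that of the adipocyte list from 6.86 to 7.79. The skeletal muscle list varied most between libraries, from 0.48 to 8.75. In bulk tissue, fewer cells of a type and less RNA per cell cannot be told apart. The B and plasma cell list ranged further down in KO libraries, 5 of which lay below the WT range. All 8 of its genes were measured, and its mean log2(FPKM + 1) ran from 0.83 to 4.87 in KO AngII libraries, 0.71 to 5.66 in KO saline, 4.09 to 5.64 in WT AngII and 3.40 to 5.57 in WT saline. Its summed level spanned 6.25 to 695 FPKM in KO libraries and 104 to 636 FPKM in WT libraries, and none of its genes was at 0 in all 20 libraries.

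Loss of Rab22a showed as loss of Rab22a-201, the main model with exon 3, while the model without exon 3 was more abundant in KO aortas. The other model with exon 3, Rab22a-202, fell below the filter and was not tested. Its mean was 0.035 FPKM in KO AngII, 0.022 in KO saline, 0.070 in WT AngII and 0.077 in WT saline. Rab22a-201 had 1, 3, 1, 3 and 3 reads in KO AngII libraries and 1, 2, 1, 0 and 1 reads in KO saline libraries, at most 0.0056 FPKM. In WT AngII libraries it reached 6.40, 1.87, 7.24, 5.69 and 8.62 FPKM, and in WT saline libraries 6.66, 7.12, 8.42, 2.34 and 4.96 FPKM. No KO library came near any WT library, and counts of 0 to 3 lie at or under the 3 reads that a count of 0 allows, so no fold is given. On the log2(FPKM + 1) scale the difference was -2.69 ± 0.28 under AngII (limma, adjusted p = 0.000414) and -2.70 ± 0.28 under saline (SE, adjusted p = 0.000191).

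Rab22a-203 went the other way, but this is not a result apart from the loss of Rab22a-201. The models share nearly all their exons, so with few exon 3 reads the shared reads could fall to Rab22a-203. The sum over models did not differ detectably between genotypes. Rab22a-203 had 8.74, 8.79, 8.995, 9.25 and 10.2 FPKM in KO AngII libraries, against 1.58, 0.514, 2.39, 3.18 and 1.43 FPKM in WT AngII libraries. Under saline it had 7.43, 9.80, 9.67, 8.93 and 11.1 FPKM in KO libraries, against 3.60, 1.51, 2.01, 0.162 and 3.61 FPKM in WT libraries. The lowest KO library lay above the highest WT library under each treatment, as for 262 transcripts higher in KO under AngII (1.03%) and 78 under saline (0.308%). The log2 difference was 1.94 ± 0.31 under AngII (limma, adjusted p = 0.0134) and 1.86 ± 0.31 under saline (adjusted p = 0.0273). Among 25362 transcripts tested, limma called 143 (0.564%) between KO and WT under AngII and 18 (0.0710%) under saline, and under saline Rab22a-203 was the only 1 called higher in KO. The saline call was lost, with the log2 difference still at 1.80 to 1.88, when any of 5 saline libraries was left out (adjusted p = 0.0734 to 0.0964 in limma): KO replicates 2, 4 or 5, or WT replicates 2 or 3. With a pseudocount of 0.1, or with the compared groups fitted alone, adjusted p was 0.0554 and 0.0515 under AngII, and 0.15 and 0.237 under saline.

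**Figure D2:**
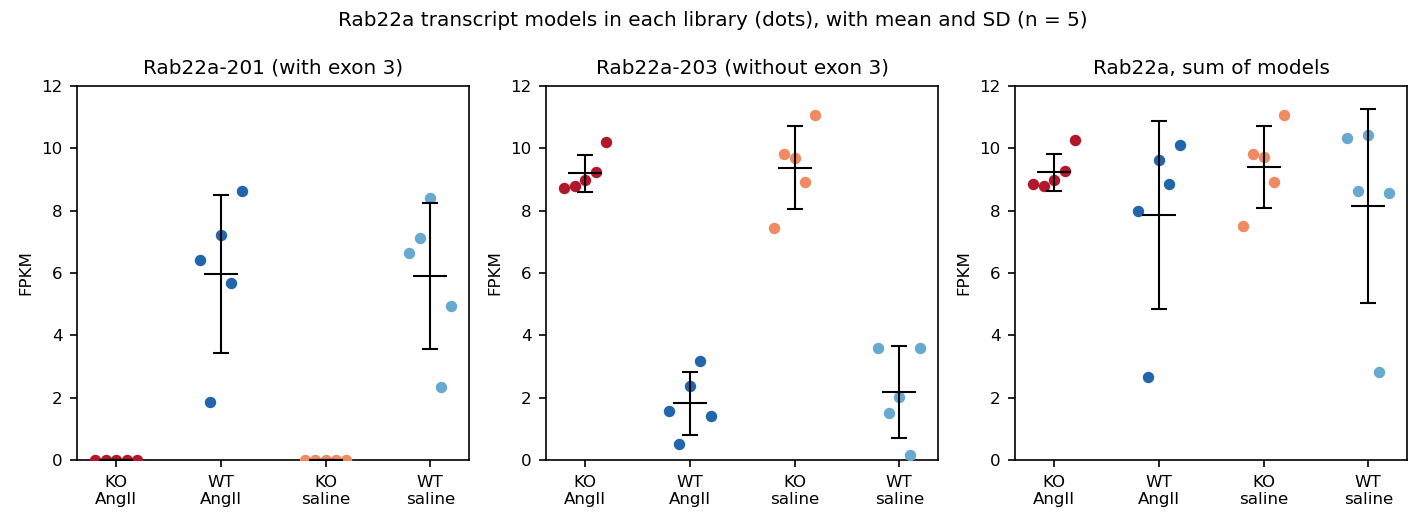
FPKM of Rab22a-201, Rab22a-203 and the sum of all Rab22a models in each library (dots), with mean and SD (n = 5 per group), KO beside WT under AngII and then under saline. Rab22a-201 is at the floor in all 10 KO libraries and Rab22a-203 is higher in all 10 KO libraries than in any WT library, while the sums overlap.

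In WT aortas Rab22a-201 held 75.0% ± 8.2 of the FPKM of the gene under AngII and 73.7% ± 11.7 under saline (SD, n = 5 each), against 0.0441% ± 0.0214 and 0.0195% ± 0.0134 in KO aortas under the same treatments. Each of these differences gave the smallest p that an exact permutation test of 5 libraries against 5 allows, 0.00794 (two-sided), or 0.0635 after adjustment over 16 share comparisons. The ratio of Rab22a-203 to Rab22a-201 in WT libraries ranged from 0.0692 to 0.728. Both models share every exon but exon 3 and the last 28 bases, so in WT libraries this ratio depends on how reads from shared exons were divided, a step the sources used here do not describe.

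The KO libraries were also more alike than the WT libraries in total Rab22a. Summed over models, Rab22a averaged 9.24 ± 0.60 FPKM in KO AngII, 9.41 ± 1.31 in KO saline, 7.85 ± 3.01 in WT AngII and 8.16 ± 3.11 in WT saline (SD, n = 5 each). A single library in each WT group set that spread, WT AngII replicate 2 with 2.65 FPKM and WT saline replicate 4 with 2.82 FPKM. All other WT libraries held 7.99 to 10.4 FPKM. The same 2 libraries had the most of the rare Rab22a-202, 0.272 FPKM from 17 reads and 0.321 FPKM from 21 reads, while it had at most 8 reads in any other library. The log2 difference of the sum, KO minus WT, was 0.31 ± 0.29 under AngII (limma, adjusted p = 0.613) and 0.27 ± 0.29 under saline (adjusted p = 0.876). Without those 2 libraries the saline difference was -0.02.

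Rab31, the member nearest to Rab22a by layout, had no difference between genotypes that passed the test. It had 12.4, 14.6, 13.3, 13.6 and 16.2 FPKM in KO AngII aortas, against 13.6, 10.7, 9.51, 13.0 and 17.3 FPKM in WT AngII aortas. Under saline it had 10.04, 10.2, 15.8, 12.4 and 14.5 FPKM in KO aortas, against 11.1, 9.30, 13.6, 10.2 and 8.34 FPKM in WT aortas. The groups overlapped under each treatment. The log2 difference was 0.14 ± 0.16 under AngII (95% interval -0.19 to 0.48, limma, adjusted p = 0.676) and 0.24 ± 0.16 under saline (-0.10 to 0.57, adjusted p = 0.801). These intervals leave room for a rise in Rab31 as well as for a small fall.

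By level per length, the members kept a fixed order at the top. Rab5c was the most abundant in all 20 libraries, with 59.2 to 107 FPKM and a median of 78.8 FPKM. Rab5a followed with a median of 28.2 FPKM and Rab21 with 21.6 FPKM, and each stood above the next in 20 of 20 libraries. Rab31 (median 12.7 FPKM) exceeded Rab22a (8.97 FPKM) in 18 of 20 libraries, and Rab22a exceeded Rab5b (7.80 FPKM) in 17 of 20. Rab22a and Rab5b therefore did not separate beyond their spread. Among 59 Rab genes found by symbol, Rab5c ranked 3 by mean FPKM, Rab5a 12, Rab21 20, Rab31 28, Rab22a 35 and Rab5b 36. Rab7, of late endosomes, was the most abundant with a mean of 151 FPKM.

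**Figure D3:**
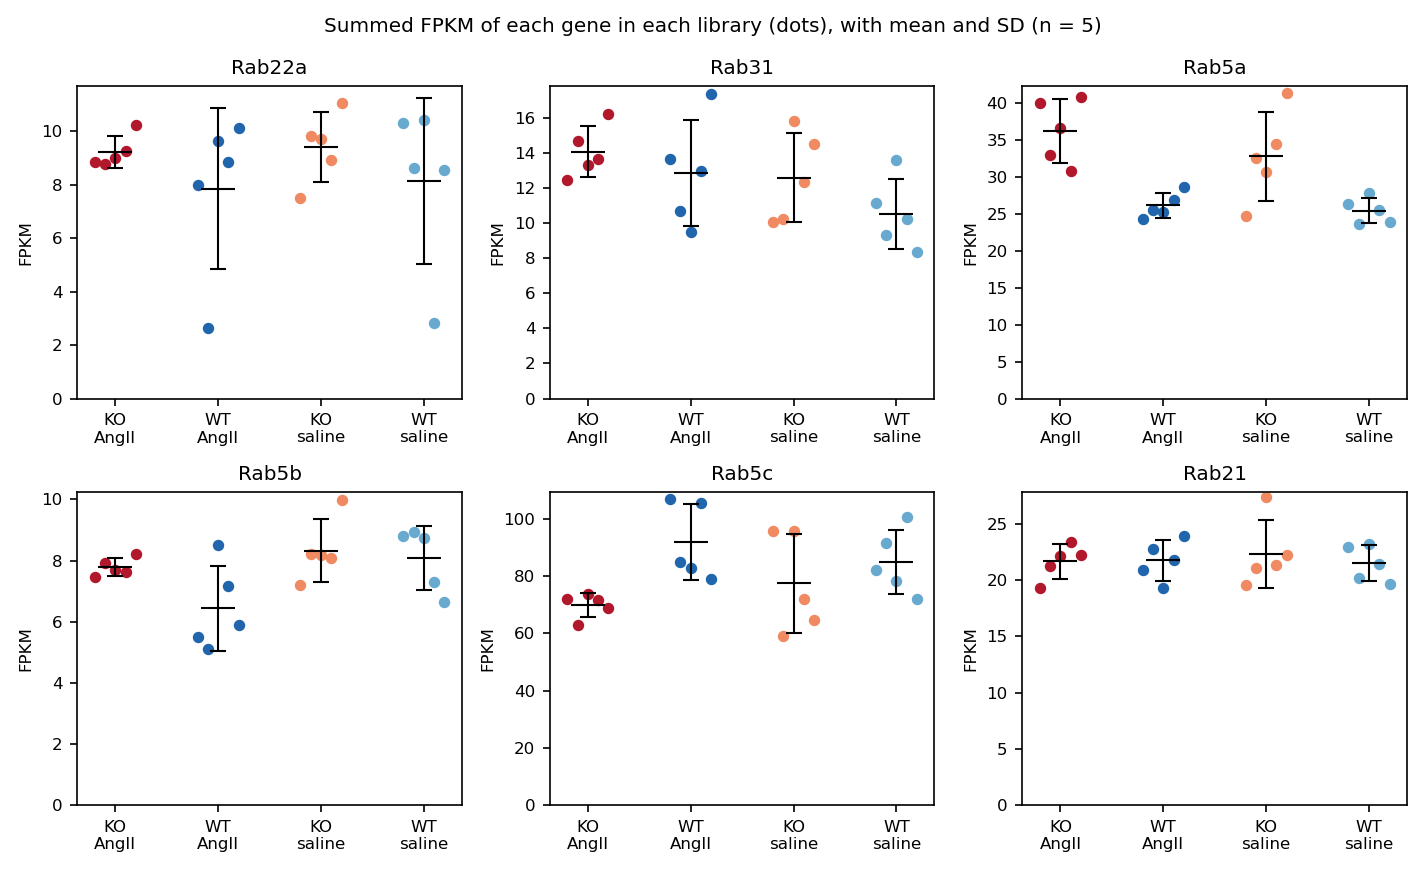
Summed FPKM of each of the 6 genes in each library (dots), with mean and SD (n = 5 per group), KO beside WT under AngII and then under saline. Rab5a sits higher in KO than in WT aortas under AngII without overlap, Rab5c sits lower without overlap, and Rab31, Rab5b and Rab21 overlap.

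Rab5a was the member that differed most by genotype in its sum, and its KO values were the higher ones. Under AngII it had 40.1, 33.0, 36.6, 30.8 and 40.9 FPKM in KO aortas, against 24.3, 25.5, 25.3, 26.9 and 28.7 FPKM in WT aortas. Under saline it had 24.7, 32.6, 30.7, 34.5 and 41.4 FPKM in KO aortas, against 26.3, 23.7, 27.8, 25.5 and 24.0 FPKM in WT aortas. Under AngII the groups did not overlap, as for 206 of 15010 genes higher in KO (1.37%), and under saline 4 of 5 KO libraries lay above all WT libraries. Rab5a averaged 36.3 ± 4.4 FPKM in KO AngII, 32.8 ± 6.1 in KO saline, 26.1 ± 1.7 in WT AngII and 25.5 ± 1.7 in WT saline (SD, n = 5 each).

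The limma log2 difference of Rab5a was 0.45 ± 0.12 under AngII (adjusted p = 0.0521) and 0.34 ± 0.12 under saline (adjusted p = 0.523), so neither treatment alone passed the threshold of 0.05. Under AngII limma called 275 of 15010 genes (1.83%) and none of the 6 members, of which 2 had an unadjusted p under 0.05, against 17.3% of all genes. Under saline it called 2 genes (0.0133%) and no member, with 1 member at an unadjusted p under 0.05, against 7.37% of all genes. Averaged over both treatments, a contrast chosen after the data were seen, the difference was 0.39 ± 0.08 (adjusted p = 0.0141), with 9 of 10 KO libraries above every WT library. That contrast called 623 genes (4.15%), 143 of them higher in KO (0.953%) and 480 lower (3.20%), and Rab5a alone among the 6 members. Rab5a was also the only Rab gene called higher of the 54 tested, while Rab1b was called lower (-0.28 ± 0.07, limma, adjusted p = 0.0331). The Rab1b call was lost in 8 of 20 fits that left out a library, with TMM factors (-0.23, adjusted p = 0.204) and after quantile normalization (-0.13, 0.285). The genotype difference of Rab5a did not differ detectably between treatments (interaction 0.12 ± 0.16, limma, adjusted p = 0.995).

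Scaling moved the whole set of genes against which Rab5a is read. The median log2 difference of all genes under AngII was -0.103 as deposited, -0.0252 with factors in the manner of TMM, and 0.0309 after quantile normalization, where Rab5a stood at 0.45, 0.55 (limma, adjusted p = 0.0286) and 0.60 (0.0232). The called genes were 59 higher and 216 lower in KO as deposited, 183 and 133 with the TMM factors, and 250 and 124 after quantile normalization. With both treatments the split was 143 higher and 480 lower as deposited, 296 and 298 with TMM factors, and 429 and 245 after quantile normalization. Rab5a under AngII also passed with a filter at 5 FPKM (adjusted p = 0.0366), and without KO saline replicate 1, 3 or 5 or KO AngII replicate 4 (0.0266 to 0.0461), and did not pass in the other fits that left out a library (adjusted p up to 0.139).

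**Figure D4:**
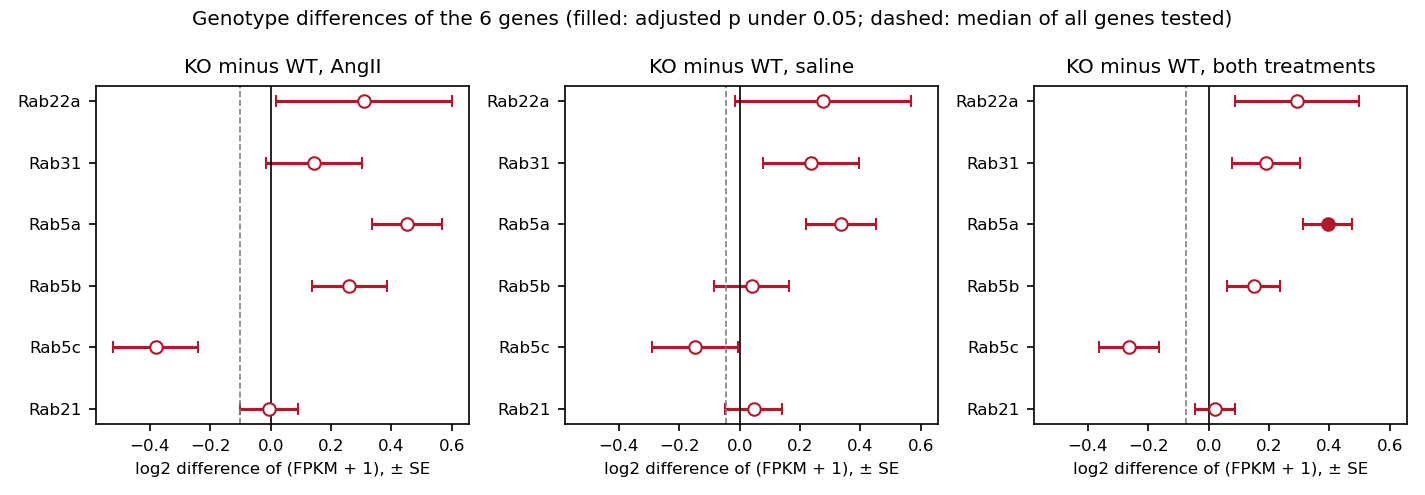
Log2 difference of (FPKM + 1), KO minus WT, for each gene sum with its SE, under AngII, under saline and over both treatments. A filled point has an adjusted p under 0.05, which holds for Rab5a over both treatments; the dashed line is the median of all genes tested, -0.103 under AngII, -0.0438 under saline and -0.0736 over both.

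Rab5a levels ran against the lymphocyte markers. Over 20 libraries that share one dissection scheme its log2 level had r = -0.67 with the B and plasma cell list, and r = -0.50 after group means were taken off. It had r = 0.36 with the nerve list, and r = 0.66 after group means were taken off. KO AngII replicate 2 had the lowest nerve list level of all libraries, 2.63. In 5 KO libraries the B and plasma cell list lay below the whole WT range of 3.40 to 5.64, and Rab5a was above every WT library in all 5. In 4 KO libraries the list lay within the WT range, and Rab5a, at 30.7 to 40.9 FPKM, was again above the highest WT library of 28.7 FPKM in all 4. KO saline replicate 1, with the highest B and plasma cell level of all (5.66), had the lowest KO value of Rab5a, 24.7 FPKM.

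With the levels of the B and plasma cell and T and NK cell lists as covariates, chosen after the data were seen, the difference over both treatments was 0.29 ± 0.09 (limma, adjusted p = 0.0693), and with the nerve list it was 0.39 ± 0.07 (adjusted p = 0.0059). Without the 2 KO saline libraries rich in lymphocyte markers, replicates 1 and 3, the difference was 0.47 ± 0.07 (limma, adjusted p = 0.00127). Those 2 also held the lowest Rab5a of their group, 24.7 and 30.7 FPKM, so leaving them out had to raise the difference. That fit therefore cannot speak to lymphocyte content. Without the 2 WT libraries low in Rab22a the difference over both treatments was 0.39 ± 0.09 (limma, adjusted p = 0.0515).

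**Figure D5:**
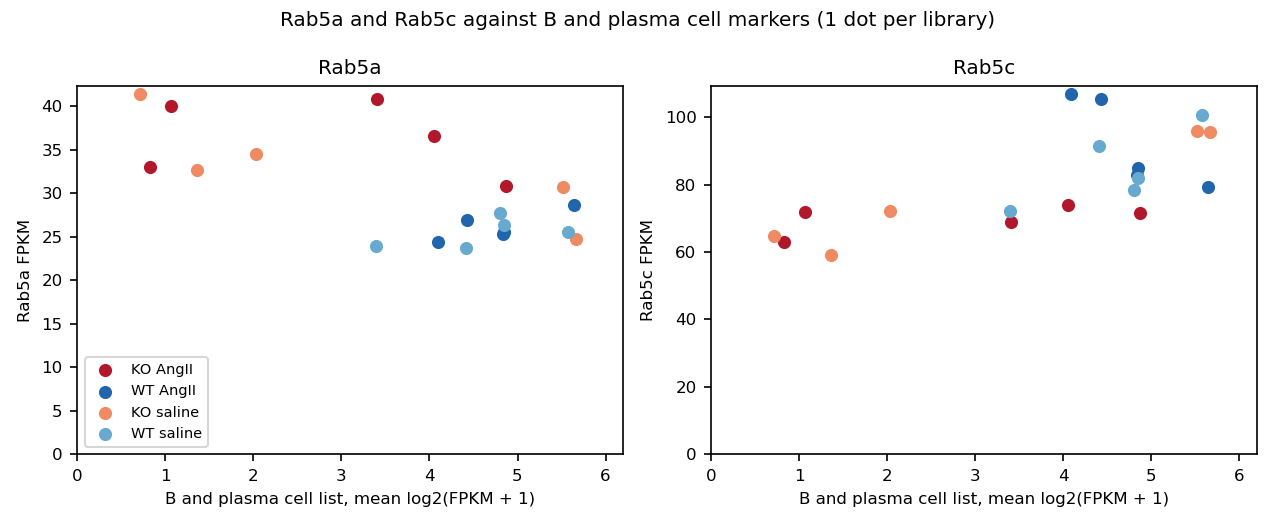
Rab5a and Rab5c FPKM of each library (1 dot each, coloured by group) against the mean log2(FPKM + 1) of the B and plasma cell markers. Rab5a is above the WT dots in KO libraries at low and at high marker levels, except in KO saline replicate 1, and Rab5c is highest where the markers are high.

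The start region of Rab5a is printed because it was the member with a difference between genotypes, beside that of Rab5c, which went the other way (RefSeq, GRCm38.p6, 250 bases before to 50 after the start). The Rab5a window lies on the plus strand at chr17:53478984-53479283 and the Rab5c window on the minus strand at chr11:100738166-100738465. Capitals mark CACGTG, the core E-box, and TGACGTCA, the cyclic AMP response element; both read the same on either strand and do not overlap.
Rab5a: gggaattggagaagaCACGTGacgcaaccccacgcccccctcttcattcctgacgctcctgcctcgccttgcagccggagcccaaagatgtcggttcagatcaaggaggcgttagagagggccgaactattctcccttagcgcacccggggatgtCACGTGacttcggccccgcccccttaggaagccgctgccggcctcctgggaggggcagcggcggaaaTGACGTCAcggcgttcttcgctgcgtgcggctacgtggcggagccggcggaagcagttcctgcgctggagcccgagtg
Rab5c: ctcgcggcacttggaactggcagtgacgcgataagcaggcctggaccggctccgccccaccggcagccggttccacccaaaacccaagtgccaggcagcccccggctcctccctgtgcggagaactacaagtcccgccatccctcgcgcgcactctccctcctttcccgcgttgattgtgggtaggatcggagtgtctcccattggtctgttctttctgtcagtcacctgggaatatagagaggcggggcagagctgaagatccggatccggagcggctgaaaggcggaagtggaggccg
Of the 6 members, Rab5a and Rab21 held CACGTG, which 7.15% of 32851 promoter windows held, and Rab5a alone held TGACGTCA, found in 1.79% of windows. Counted from the start, CACGTG began at -235 and -95 in Rab5a and TGACGTCA at -28. The other windows had neither, which says only that these letters are not in them. Also looked for were CCAAT, in 5 of 6 members and 37.4% of windows, and GGGCGG, in 6 of 6 and 35.7%. TATAAA was in 0 of 6 members and 13.6% of windows. Member windows held 58.0% to 70.7% GC, Rab5a 65.3%, against a median of 52.7%. The shares over all windows are therefore not matched for base content.

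Rab5c, the most abundant member, was lower in KO than in WT aortas under AngII, but this did not pass the test over all genes. It had 71.9, 63.1, 73.9, 71.5 and 69.0 FPKM in KO AngII aortas, against 107, 85.1, 82.9, 105 and 79.2 FPKM in WT AngII aortas. The groups did not overlap, as for 576 genes lower in KO (3.84%). Under saline it had 95.7, 59.2, 95.8, 72.2 and 64.8 FPKM in KO aortas, against 82.1, 91.6, 78.5, 101 and 72.1 FPKM in WT aortas. Here the KO libraries spread over and below the WT range. The log2 difference was -0.38 ± 0.14 under AngII (limma, adjusted p = 0.17) and -0.15 ± 0.14 under saline (adjusted p = 0.871), and over both treatments -0.26 ± 0.10 (adjusted p = 0.143).

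The 2 KO saline libraries with the highest Rab5c, replicates 1 and 3, were also the 2 richest in lymphocyte markers in their group. Over 20 libraries Rab5c had r = 0.72 with the B and plasma cell list and 0.73 with the T and NK cell list, and r = 0.61 and 0.65 after group means were taken off. With both lists as covariates the AngII difference was -0.24 ± 0.13 (limma, adjusted p = 0.326), and after quantile normalization it was -0.17 ± 0.13 (adjusted p = 0.527). Without KO saline replicates 1 and 3 the difference over both treatments was -0.37 ± 0.09 (limma, adjusted p = 0.00827). They held the 2 highest Rab5c values of their group, so leaving them out had to lower the KO mean. That fit therefore cannot tell whether the difference holds apart from lymphocyte content. The part of lymphocyte content in the Rab5c values was not tested further.

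Rab5c-202 carried most of the gene, with 49.3 to 96.0 FPKM over all libraries, and Rab5c-201 had 4.49 to 13.4 FPKM. Rab5c-201 differs in its coding part by 54 bases at the start of coding exon 4, on the minus strand at chr11:100716852-100716905 (mm10). They are shown because they set the models apart and keep the frame, giving 234 codons in place of 216.
Rab5c-201, added bases: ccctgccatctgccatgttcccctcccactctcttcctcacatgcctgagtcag
Rab5c-202 held 86.2% ± 4.8 of the gene in KO AngII, 87.2% ± 1.2 in KO saline, 88.8% ± 1.4 in WT AngII and 88.9% ± 3.5 in WT saline (SD, n = 5 each). Rab5c-203 and Rab5c-204 stayed at or below 0.670 FPKM in every library.

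Rab5b was the least abundant member and its groups overlapped in every comparison. Under AngII it had 7.46, 7.93, 7.68, 7.63 and 8.23 FPKM in KO aortas, against 5.50, 5.11, 8.51, 7.17 and 5.88 FPKM in WT aortas. Under saline it had 7.18, 8.21, 8.18, 8.08 and 9.98 FPKM in KO aortas, against 8.82, 8.94, 8.75, 7.29 and 6.64 FPKM in WT aortas. The KO AngII libraries were close to each other, and 4 of 5 WT AngII libraries lay below all of them. The log2 difference between KO and WT was 0.26 ± 0.12 under AngII (limma, adjusted p = 0.29) and 0.04 ± 0.12 under saline (adjusted p = 0.963). A spliced form, Rab5b-201, held 57.8% ± 16.4 of the gene in KO AngII, 65.4% ± 9.1 in KO saline, 67.8% ± 14.4 in WT AngII and 64.5% ± 9.97 in WT saline (SD, n = 5 each). The remainder was Rab5b-202, a model with a retained intron that total RNA keeps in the library, at 0.836 to 5.27 FPKM.

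Rab21 was the steadiest member. It averaged 21.7 ± 1.5 FPKM in KO AngII, 22.3 ± 3.0 in KO saline, 21.8 ± 1.8 in WT AngII and 21.5 ± 1.6 in WT saline (SD, n = 5 each), and ranged over all libraries between 19.3 and 27.4 FPKM. The 95% intervals of its genotype difference were -0.20 to 0.20 under AngII and -0.15 to 0.25 under saline on the log2 scale (limma, adjusted p = 0.987 and 0.938). After group means were taken off Rab21 had r = 0.76 with the endothelial list, 0.71 with macrophages and 0.64 with fibroblasts over 20 libraries. It also had r = 0.54 with T and NK cells and -0.48 with skeletal muscle. Rab31 had a like pattern, with r = 0.53 for endothelium, 0.46 for macrophages, 0.62 for fibroblasts and -0.49 for skeletal muscle. A minor model, Rab21-202, runs from the start exon into the intron after it. It had 1.10, 0.740, 1.03, 0.996 and 0.285 FPKM in KO saline libraries, against 1.85, 1.17, 1.26, 1.40 and 1.12 FPKM in WT saline libraries. Those groups did not overlap, as for 316 of 25362 transcripts lower in KO (1.25%), but the difference of -0.38 ± 0.17 did not pass over all transcripts (limma, adjusted p = 0.586). It rests on 18 to 116 reads per library.

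AngII itself moved none of the 6 genes past the threshold in either genotype. In KO mice limma called 0 of 6 members and 0 of 15010 genes (0%), with 0 members at an unadjusted p under 0.05 against 595 genes (3.96%). In WT mice it called 0 of 6 and 0 genes (0%), with 1 member at an unadjusted p under 0.05 against 458 genes (3.05%). That member was Rab5b, which averaged 6.43 ± 1.39 FPKM under AngII and 8.09 ± 1.05 under saline in WT aortas (SD, n = 5 each; log2 difference -0.30 ± 0.12, limma, adjusted p = 1). Rab31 averaged 12.8 ± 3.0 FPKM under AngII and 10.5 ± 2.0 under saline in WT aortas (SD, n = 5 each), and 14.0 ± 1.5 against 12.6 ± 2.5 FPKM in KO aortas. The median log2 difference of the members between AngII and saline was -0.03 in KO and 0.03 in WT mice. The interaction of genotype with AngII called 0 of 6 members and 0 genes (0%), with 0 members at an unadjusted p under 0.05 against 501 genes (3.34%).

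Of 35 genes that load, unload, carry or bind these GTPases, all tested, 2 were called between KO and WT under AngII, both effectors and both higher in KO, where 1.83% of all genes were called. Eea1, the tether that Rab5 and Rab22a bind on early endosomes, averaged 11.7 ± 1.6 FPKM in KO AngII and 7.51 ± 1.24 in WT AngII (SD, n = 5 each; log2 difference 0.58 ± 0.14, limma, adjusted p = 0.0454). Its KO libraries held 9.97 to 13.9 FPKM and its WT libraries 6.29 to 9.08 FPKM. These did not overlap, as for 206 of 15010 genes higher in KO (1.37%). Ocrl, a phosphoinositide phosphatase recruited by Rab5, averaged 1.88 ± 1.06 FPKM in KO AngII and 0.584 ± 0.297 in WT AngII (0.81 ± 0.19, adjusted p = 0.039). Ocrl is near the filter of 1 FPKM, and its KO AngII libraries ranged from 1.13 to 3.49 FPKM. Its WT AngII libraries ranged from 0.295 to 1.08 FPKM. It reached 1 FPKM in 5 libraries only through the KO AngII group, so its call is not independent of the filter. Leaving out 1 library at a time ended the Eea1 call in 12 of 20 fits (adjusted p up to 0.138) and the Ocrl call in 10 (up to 0.112), with the differences between 0.52 and 0.64 and between 0.63 and 0.91. With the compared groups fitted alone adjusted p was 0.0781 for Eea1 and 0.128 for Ocrl. The median of the 13 effectors was 0.18, against -0.103 for all genes. Of these effectors 7 were higher in KO and the rest lower, where 38.0% of all genes were higher.

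Among the other lists none of 9 exchange factors, 5 GTPase activating proteins or 8 dissociation inhibitors and prenylation genes was called under AngII. Of all 35, 12 had an unadjusted p under 0.05 there, against 17.3% of all genes. Under saline 0 of 35 were called by limma and 1 had an unadjusted p under 0.05, against 7.37% of all genes. Over both treatments 3 were called higher, namely Eea1, Ocrl and Chm, and 1 lower, Rabac1, where 0.953% of all genes were called higher and 3.20% lower. Ocrl was among the tested genes only through its KO AngII libraries. Chm, the escort protein that presents Rabs for prenylation, averaged 7.05 ± 0.85 FPKM in KO and 5.31 ± 0.96 in WT aortas (SD, n = 10 each; limma, adjusted p = 0.0345). Rabac1, the prenylated Rab acceptor, averaged 189 ± 22 FPKM in KO and 258 ± 49 in WT aortas (adjusted p = 0.0336). Of these 4, Eea1 kept its call in all 20 fits that left out a library (adjusted p = 0.0117 to 0.0387), while Ocrl lost it in 12, Chm in 12 and Rabac1 in 10, and without both low WT libraries none of the 4 passed (adjusted p = 0.0615 to 0.126). Rabac1 was at -0.20 after quantile normalization (adjusted p = 0.259), against -0.43 as deposited. In both AngII comparisons and in the interaction limma called 0 of 35, with 4 of 35 at an unadjusted p under 0.05 in KO (3.96% of all genes), 1 of 35 in WT (3.05%) and 2 of 35 for the interaction (3.34%).

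The genes whose log2 levels tracked each member best over the 20 libraries were ranked by Pearson r, as a description that carries library content with it. For Rab5a they were Pcdh19 (r = 0.94), Tmem30a (0.92) and Spag9 (0.92). For Rab21 they were Pros1 (0.91), Vps26a (0.86) and Ehd4 (0.85), and for Rab31 Spred1, Ccdc126 and Tmem263 (0.84 each). For Rab5c they were Rpsa-ps1 (0.88), a pseudogene that may share reads with its parent gene, Exosc2 (0.84) and Eif3g (0.84). For Rab5b they were Pdpr (0.83), Bag6 (0.81) and Gk5 (0.80). For Rab22a they included Neurl1b (0.83) and Rapgef3 (0.80), and those values rested on the 2 low WT libraries: without them they were 0.57 and 0.47. Without the 2 libraries farthest from the median of the member, r was 0.57 to 0.65 for Rab5b and 0.72 to 0.93 for Rab5a, Rab21, Rab31 and Rab5c. Between members, Rab5a and Rab5c ran in opposite directions (r = -0.67, and -0.45 after group means were taken off), and Rab21 and Rab31 ran together (0.65 and 0.75).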

How the data were processed

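Per the labels' protocols, total RNA of abdominal aortas was depleted of ribosomal RNA before libraries were made. The authors deposited 1 table per library with 126719 transcript models, in values read here as FPKM: multiplied by transcript length, 99.4% to 99.6% of low values lay within 0.1 read of a whole number. Per the submitters' processing notes the build is mm10 and limma was used; no aligner or counter is named in the sources used here. The design text counts mice, and each library was taken as 1 mouse.

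Models were assigned to genes with GENCODE M21 and their FPKM summed per gene. Features reaching 1 FPKM in 5 or more libraries (15010 genes, 25362 transcripts) were fitted with limma 3.58.1 (R 4.3.3; 4 group means, moderated with the trend and robust options) on log2(FPKM + 1), with Benjamini-Hochberg adjustment over all features, two-sided. A fold on this scale understates changes of low features. Shares were compared with exact permutation tests. The fit was tested on simulated data. The members, gene lists and tests were chosen with earlier results of these data known. Named were all members, their models with a mean of at least 1 FPKM in a group, the 3 genes most like each member, and called list genes; 1 such gene and 1 exon sequence are not reported here. Rab31-202 and Rab5a-202 were not analysed here. Promoters came from RefSeq (GRCm38.p6) and exons from GENCODE; protein sequences were not used here.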

Additional observations from a re-analysis of the deposited data

Results flagged for a closer look

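Total Rab22a in WT AngII replicate 2 was 2.65 FPKM, far below the other 4 libraries of its group at 7.99 to 10.1 FPKM; the gap took 0.717 of the range of the group. Total Rab22a in WT saline replicate 4 was 2.82 FPKM, against 8.57 to 10.4 FPKM in the other 4, and the gap took 0.754 of the range. The critical value for 5 samples is 0.71. These were the 2 values past the critical value among 56 groups of 5 examined over the member genes and their models. Chance gives about 1 in 20, so 2 of 56 is no more flags than chance gives. In the same 2 libraries Rab22a-201 was also the lowest of its group, at 1.87 and 2.34 FPKM, Rab22a-203 was lowest at 0.514 and 0.162 FPKM, and Rab22a-202 was highest at 0.272 and 0.321 FPKM. Rab31 in these libraries was 10.7 and 10.2 FPKM and Rab5a 25.5 and 25.5 FPKM, inside the range of their groups.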

How the results depend on the processing

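Counts of calls moved more than the members did. Genes called between KO and WT under saline numbered 2, against 20 with no filter on low values and 1 with a filter at 5 FPKM, with quantile normalization, with the replicate block or with the compared groups fitted alone. Under AngII they numbered 275, against 70 with the replicate block and 1 with the compared groups alone. With no filter, limma called 11 genes for AngII against saline in WT, 1 for the interaction and 1172 for genotype over both treatments, where 0, 0 and 623 had been called. Transcripts called under saline numbered 18, against 10 with the filter at 5 FPKM, 6 with the replicate block and 7 with the compared groups alone, and under AngII 143, against 257, 20 and 5 in the same order. For AngII against saline the compared groups alone gave 0 transcripts in KO and 2 in WT, and no filter gave 14 in WT and 1 for the interaction.

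With 1 library left out in turn, genes called ranged from 1 to 4 under saline, from 9 (without KO AngII replicate 3) to 491 (without WT AngII replicate 3) under AngII, from 0 to 4 for AngII in KO, from 0 to 1 for AngII in WT, from 0 to 0 for the interaction and from 281 (without WT AngII replicate 2) to 1007 (without KO saline replicate 3) for genotype over both treatments. Transcripts called ranged from 3 to 31, 15 to 323, 1 to 2, 0 to 2, 0 to 1 and 347 to 998 in the same 6 comparisons. The cause was not tested.

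Signs turned only for differences that were not called. The Rab22a sum, at 0.27 under saline and 0.29 over both treatments, turned without the low WT libraries, and the others were near 0. Rab5b under saline was -0.013 with the lymphocyte covariates and -0.021 to 0.085 with a library left out. Rab22a under saline was -0.0155 at the lowest, without WT saline replicate 4 or without both low WT libraries, and 0.38 at the highest, and over both treatments it was -0.00016 without both. Rab21 under AngII was 0.15 with quantile normalization, 0.091 with TMM factors, 0.041 with the lymphocyte covariates, 0.013 without the low WT libraries and -0.045 to 0.034 with a library left out, where it ran from -0.027 to 0.0899 under saline and from -0.016 to 0.043 over both treatments. The share of Rab5b-201 under saline, KO minus WT, ran from -2.31 to 4.45 percentage points.

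Same-numbered libraries of different groups did not deviate together (30 pairs, r from -0.523 to 0.412, median -0.0265, and 3 of 20 libraries closest to their own number), so the numbers were not taken as pairs. With the replicate block the Rab22a-203 difference under saline had adjusted p = 0.0855 in limma, and Rab5a over both treatments 0.0275. Rab22a-203 under saline also missed the threshold with no filter (0.0636) and with the lymphocyte covariates (0.101). Depth limits the rare models most: Rab22a-202 had at most 21 reads in a library.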
